A study of Homo sapiens with 8 samples.

Results

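The IL6 cytokine family, its receptors and its SOCS inhibitors were described in A549 cells through 10 genes, listed by symbol: the cytokines IL6, IL11 and LIF, the receptor chains IL6R, IL6ST, LIFR and OSMR, and the inhibitors SOCS1, SOCS2 and SOCS3. All 10 were found among the 19056 genes measured. A549 is a long-established human line of lung carcinoma cells. The cells received EEDS, an ethanol extract of D. sophia seeds (vehicle, 1.25, 5 and 20 μg/mL), or helveticoside, a cardiac glycoside purified from that extract (vehicle, 3.75, 15 and 60 nM). Each agent had its own vehicle control, and the cells carried no other treatment or engineered change. Each condition was 1 Agilent one-colour array of RNA pooled in equal amounts from 3 cultures, 8 arrays in all, so no condition had a replicate, and the precision of each value is limited by the number of arrays. The labels state 48 h of exposure and the methods state 24 h.

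Most cytokines of the IL6 family signal through the shared chain IL6ST (gp130), either paired with itself or with another chain such as LIFR or OSMR. Some of them, such as IL6 and IL11, first bind a receptor chain specific to each. Receptor-bound JAK kinases then phosphorylate STAT factors, chiefly STAT3, which enter the nucleus and switch on target genes. SOCS3 and SOCS1 are such targets, and their proteins bind the receptors or the kinases and turn the signal off. Lung epithelial cells make IL6, IL11 and LIF under stress, inflammation and injury.

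The bases just upstream of the transcription start are shown for 3 genes that stand for the patterns in the data: IL11 and SOCS3, which rose across the doses of both agents, and IL6, which was well above background on 1 array only. They come from RefSeq windows of the GRCh38.p14 build, which held 8 of the 10 genes by symbol; LIF and SOCS2 did not match. Each line runs 5′ to 3′ on the strand of the gene and ends on the base before the start. Capitals mark the letters of 6 elements on either strand: AP-1 (TGAGTCA), the core of a cAMP response element (TGACG), NF-kappa B (GGGNNTTTC), C/EBP (TTGCNNAA), STAT (TTCNNNGAA) and the TATA box (TATAAA).
IL11, chr19:55370464-55370713, minus strand: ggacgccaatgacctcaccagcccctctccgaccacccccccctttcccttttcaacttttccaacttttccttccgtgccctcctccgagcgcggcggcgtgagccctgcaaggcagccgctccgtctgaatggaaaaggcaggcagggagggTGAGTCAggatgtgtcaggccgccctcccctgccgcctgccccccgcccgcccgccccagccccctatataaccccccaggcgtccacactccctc
IL6, chr7:22726950-22727199, plus strand: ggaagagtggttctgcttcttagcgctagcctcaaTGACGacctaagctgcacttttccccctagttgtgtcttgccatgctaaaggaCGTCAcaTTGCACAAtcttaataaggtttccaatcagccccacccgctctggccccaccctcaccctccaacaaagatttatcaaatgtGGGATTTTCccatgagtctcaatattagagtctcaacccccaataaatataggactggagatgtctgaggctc
SOCS3, chr17:78360926-78361175, minus strand: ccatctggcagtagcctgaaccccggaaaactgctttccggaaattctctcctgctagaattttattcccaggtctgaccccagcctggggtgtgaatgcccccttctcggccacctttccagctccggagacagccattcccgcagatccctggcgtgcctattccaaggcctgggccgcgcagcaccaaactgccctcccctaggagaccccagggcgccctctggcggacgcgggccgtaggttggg
The IL11 stretch held 1 AP-1 element, which began 96 bases before the start, and 4.95% of 35116 windows of 300 bases held those letters. IL6R held the only other AP-1 match among the 8 genes, 38 bases after its start. IL6 had 2 cores of a cAMP response element (215 and 162 bases before the start), a C/EBP match (155 bases) and an NF-kappa B match (73 bases). Of all windows, 24.6% held the cAMP core, 10.5% the C/EBP letters and 4.78% the NF-kappa B letters. The SOCS3 stretch printed here held none of these letters. A second SOCS3 window with another start (chr17:78359618-78359917, minus strand) held a cAMP core 17 bases after that start. STAT letters were found in LIFR windows only, against 7.66% of all windows, and bases outside the windows were not searched. A match is a run of letters and does not show that a factor was bound.

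The median intensity of the probe spots was 182 to 214 on the EEDS arrays and 223 to 278 on the helveticoside arrays, over a median local background of 27 to 34. The scanner software called 63.3% to 64.9% of the probes well above background on the EEDS arrays and 54.5% to 59.5% on the helveticoside arrays. Among 9 A549 epithelial markers found, keratins and aldo-keto reductases included, 9 were well above background on all 8 arrays. The endothelial markers PECAM1, VWF and KDR, the fibroblast markers COL1A2, DCN and PDGFRB and the lymphocyte markers CD3E and MS4A1 were well above background on none. Of the other cell lists, CDH5, COL1A1, PTPRC, CD3D, CD14 and CD68 were well above background on all 8. The summed level of the 9 immune markers was 10.33 to 12.03 on the log2 scale, that of the 4 endothelial markers 7.20 to 7.94 and that of the 6 fibroblast markers 8.22 to 9.31, and their part in the results was not tested. The 2 vehicle controls, which differ in their series, had an SD of 0.50 in the log2 difference over the 12385 genes well above background on both, and 5.30% of these genes differed more than 2-fold. In RNA from whole cultures, fewer cells of a kind and less RNA per cell cannot be told apart.

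At the highest dose of EEDS, 9 of the 10 genes were more than 2-fold above the vehicle, all but OSMR, and none was 2-fold below. On that array, 11.4% of all genes were past 2-fold in the higher direction and 12.4% in the lower. At 60 nM helveticoside the count was 5 of 10 higher (IL11, LIF, IL6R, SOCS2 and SOCS3) and 0 lower, against 7.90% and 9.74% of all genes. The median of the measured log2 ratios of the 10 genes to the vehicle was 0.61, 0.81 and 2.38 at 1.25, 5 and 20 μg/mL EEDS, and 0.30, 0.64 and 1.64 at 3.75, 15 and 60 nM helveticoside. These medians include signals not well above background. With such ratios set to their bound, or left out where no fold can be given, the median was 1.94 over 10 genes at 20 μg/mL EEDS and 1.44 over 9 at 60 nM helveticoside. The medians of the measured ratios of all genes lay between -0.04 and 0.02. At the lower doses, the counts above 2-fold were 3 genes at 1.25 μg/mL EEDS (LIF, LIFR and SOCS3, against 3.14% of all genes), 4 at 5 μg/mL (the same genes and IL11, against 5.93%), 1 at 3.75 nM helveticoside (SOCS3, against 1.24%) and 3 at 15 nM (IL11, LIF and SOCS3, against 4.24%). None of the 10 was 2-fold lower at those doses, where 2.48%, 6.63%, 1.12% and 5.42% of all genes were. A single array per dose allows no test of these ratios. Where the vehicle was not well above background, the ratio is a bound: the treated array was divided by the gene's signal on the vehicle or by the dimmest signal well above background there, whichever was larger.

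The dose trend was the one relation that could be tested. A slope per dose step was fitted to each series in a single limma fit of all arrays, over all genes. Both series shared the same estimate of the scatter, so the SE of a gene's slope was the same for both agents. The p-values were adjusted by the Benjamini-Hochberg procedure over 19056 genes. They measure the scatter of the arrays around a line and not that between cultures. IL11, LIF, IL6R and SOCS3 rose with dose in the EEDS series and in the helveticoside series, so 4 of 10 were called in each. None of the 10 fell. Of all genes, 7.26% were called as rising and 7.85% as falling with EEDS, and 5.46% and 5.79% with helveticoside. The EEDS count was 0 without the EEDS vehicle or the 20 μg/mL array, and 7 with 75th percentile scaling or a signal with normexp or no background correction. The helveticoside count was 0 without the 15 or the 60 nM array, 1 without its vehicle or the 5 μg/mL EEDS array and 2 without the 1.25 or the 20 μg/mL EEDS array.

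**Figure D1:**
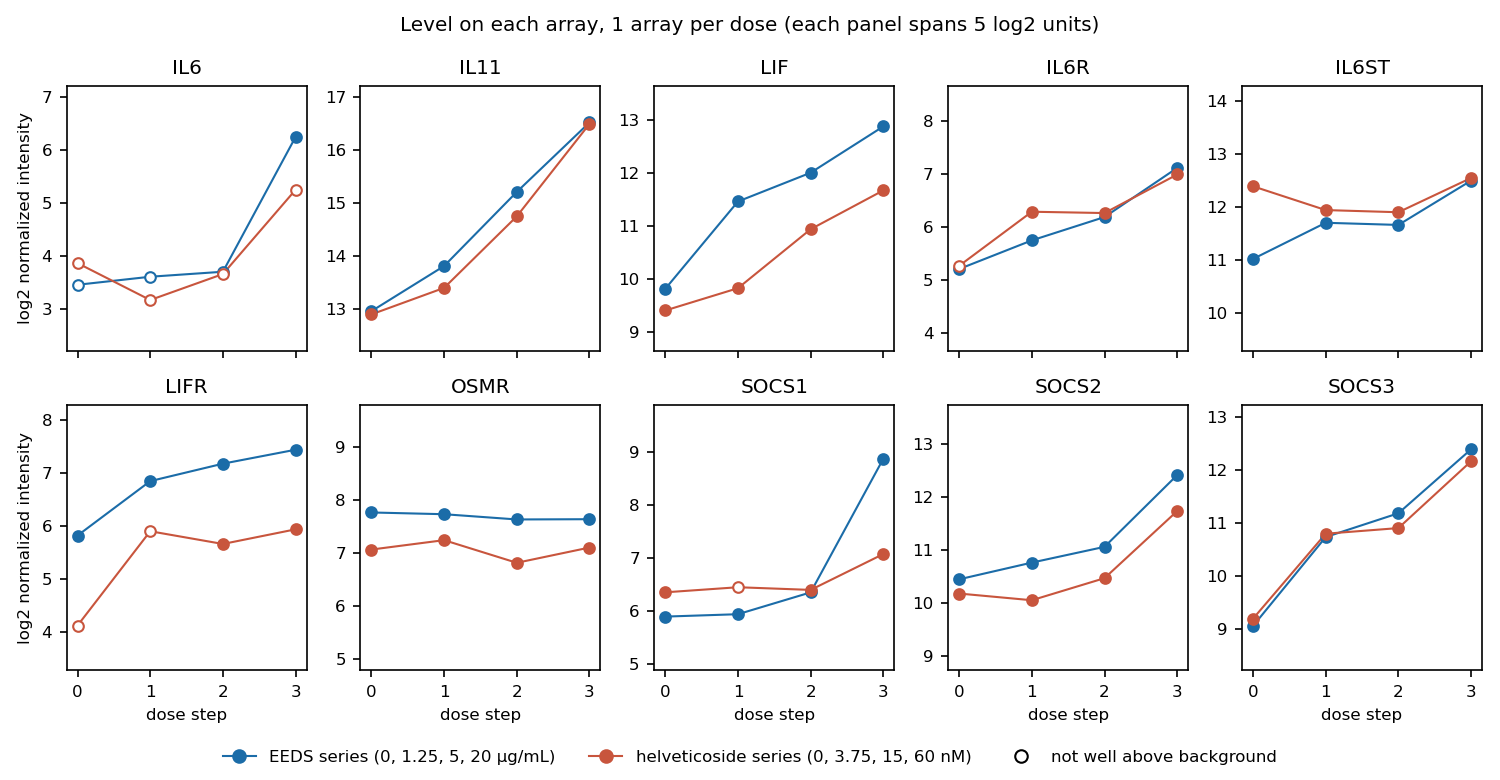
Log2 normalized intensity of each gene (vertical axis) at dose step 0 (vehicle) to 3 (top dose), with the EEDS series in blue and the helveticoside series in red; each point is 1 array, hollow points were not well above background, and each panel spans 5 log2 units. IL11 climbed from 12.95 to 16.51 with EEDS and from 12.89 to 16.49 with helveticoside, while OSMR stayed between 6.81 and 7.76 on all 8 arrays.

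IL11, a cytokine of fibrosis and of epithelial injury that signals through IL6ST, had the steepest slopes of the 10 genes. Its log2 intensity was 12.95 on the EEDS vehicle and 13.80, 15.20 and 16.51 at 1.25, 5 and 20 μg/mL. In the helveticoside series it was 12.89 on the vehicle and 13.39, 14.74 and 16.49 at 3.75, 15 and 60 nM. Each array was brighter than the one at the dose below it, and the vehicles differed by only 0.06. The top doses were 11.8-fold and 12.1-fold above their vehicles. The slope was 1.21 ± 0.13 (SE) log2 units per step with EEDS (adjusted p = 0.0135) and 1.21 ± 0.13 with helveticoside (adjusted p = 0.0167). The scanner software's own error of a log2 ratio was 0.20 for IL11, and it covers the spot only.

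LIF, the leukemia inhibitory factor that signals through LIFR and IL6ST, had a log2 intensity of 9.82 on the EEDS vehicle and 11.47, 12.01 and 12.89 at the rising doses. On the helveticoside arrays it was 9.41 on the vehicle and 9.83, 10.95 and 11.68. Every treated array lay above both vehicles, although the 3.75 nM array was level with the EEDS vehicle to within the scanner error. The folds were 3.14, 4.57 and 8.38 for EEDS, and 1.34, 2.90 and 4.81 for helveticoside. The slopes were 0.97 ± 0.12 (SE, adjusted p = 0.0144) and 0.79 ± 0.12 (adjusted p = 0.0229). A dimmer LIF probe was not well above background on either vehicle and was at least 2.43-fold, 3.76-fold and 6.26-fold higher at the rising EEDS doses. With helveticoside it was at least 1.34-fold higher at 15 nM and 1.62-fold at 60 nM, under the 2-fold limit that the brighter probe passed at both doses.

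IL6, the founding cytokine of the family and a driver of the acute-phase response, was read by 10 spots on each array. Its log2 intensity was 3.46 on the EEDS vehicle, 3.61 at 1.25 μg/mL, 3.71 at 5 μg/mL and 6.25 at 20 μg/mL. The helveticoside vehicle and the rising doses gave 3.87, 3.17, 3.66 and 5.26. Only the 20 μg/mL EEDS array was well above background, where the SD between the 10 spots was 0.12, against 0.17 to 0.65 on the other arrays. IL6 was at least 3.25-fold higher there than on the vehicle. At 60 nM helveticoside it was not well above background and no fold is given. Neither slope was called, with 0.85 ± 0.34 (SE, adjusted p = 0.149) for EEDS and 0.46 ± 0.34 (adjusted p = 0.452) for helveticoside. A median signal with no background subtracted moved the IL6 ratio at 20 μg/mL from 1.70 to 0.81 on the log2 scale, and the vehicle of the other series moved it to 0.70.

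The ligand-specific receptor IL6R was dim. Its log2 intensity was 5.21 on the EEDS vehicle and 5.75, 6.19 and 7.12 at the rising doses, all well above background. It was 5.27 on the helveticoside vehicle, where it was not well above background, and 6.29, 6.27 and 7.00 at 3.75, 15 and 60 nM. Every treated array lay above both vehicles. IL6R was 3.76-fold higher at 20 μg/mL EEDS and at least 2.72-fold higher at 60 nM helveticoside. Its slopes were 0.62 ± 0.11 (SE, adjusted p = 0.0269) and 0.51 ± 0.11 (adjusted p = 0.0456). The helveticoside call was lost with the other background corrections and scalings of the signal, where the adjusted p across all alternatives ranged from 0.0371 to 0.334. With no background subtracted, the log2 ratio was 0.93 at the top dose of EEDS and at least 0.80 for helveticoside.

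LIFR, the receptor chain for LIF, had a log2 intensity of 5.83, 6.85, 7.18 and 7.45 from the EEDS vehicle to 20 μg/mL. In the helveticoside series it was 4.13 on the vehicle and 5.91 at 3.75 nM, neither well above background, then 5.67 at 15 nM and 5.94 at 60 nM. The EEDS arrays were 2.04-fold, 2.56-fold and 3.07-fold above their vehicle, and 60 nM helveticoside was at least 1.31-fold above its own. The slopes of 0.52 ± 0.21 (SE) in both series were not called (adjusted p = 0.146 for EEDS and 0.163 for helveticoside). The log2 ratio at 20 μg/mL EEDS moved from 1.62 to 0.88 with the signal as scanned and to 0.87 with normexp correction, both under 2-fold. The helveticoside slope was 0.018 without its vehicle array and 0.084 with the signal as scanned. OSMR, the receptor chain for oncostatin M, had levels of 7.76, 7.72, 7.63 and 7.63 with EEDS and 7.06, 7.23, 6.81 and 7.10 with helveticoside. Its slopes were -0.05 ± 0.08 (adjusted p = 0.802) and -0.03 ± 0.08 (adjusted p = 0.896), with 95% intervals of -0.24 to 0.15 and -0.23 to 0.16. Of the 10 genes, it alone lay below the vehicle at 20 μg/mL EEDS, with a log2 ratio of -0.13. At 60 nM helveticoside its log2 ratio was 0.04, and it was -0.18 to -0.14 when the arrays were scaled to their 75th percentile, when normexp or no background correction was used, or in the table processed by the authors.

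IL6ST, the signaling chain shared by the family, was well above background on every array with each of its 5 probes. The brightest probe had a log2 intensity of 11.02, 11.70, 11.66 and 12.50 from the EEDS vehicle to 20 μg/mL, and of 12.39, 11.94, 11.90 and 12.55 from the helveticoside vehicle to 60 nM. The vehicles themselves differed by 1.37, and 1.67% of the genes measured on both differed by more. The top dose of EEDS was 2.79-fold above its own vehicle, but its log2 ratio was 0.11 against the vehicle of the helveticoside series. The 60 nM array had a log2 ratio of 0.16 to its own vehicle and 1.53 to that of the EEDS series. The slopes were 0.44 ± 0.13 (SE, adjusted p = 0.0791) and 0.04 ± 0.13 (adjusted p = 0.928). At 20 μg/mL EEDS, the other 4 probes had log2 ratios of 1.56, 1.52, 1.39 and 0.67, and the lowest of them was also below the vehicle at 1.25 and 5 μg/mL (-0.26 and -0.19). With helveticoside all 5 probes were below the vehicle at 3.75 and 15 nM, with log2 ratios of -0.49 to -0.09, and above it at 60 nM, with log2 ratios of 0.16 to 0.72. The probes are assigned to the transcripts NM_002184 and NM_175767, and the lowest EEDS ratio was at a probe of NM_175767, as were those of 1.52 and 1.39.

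**Figure D2:**
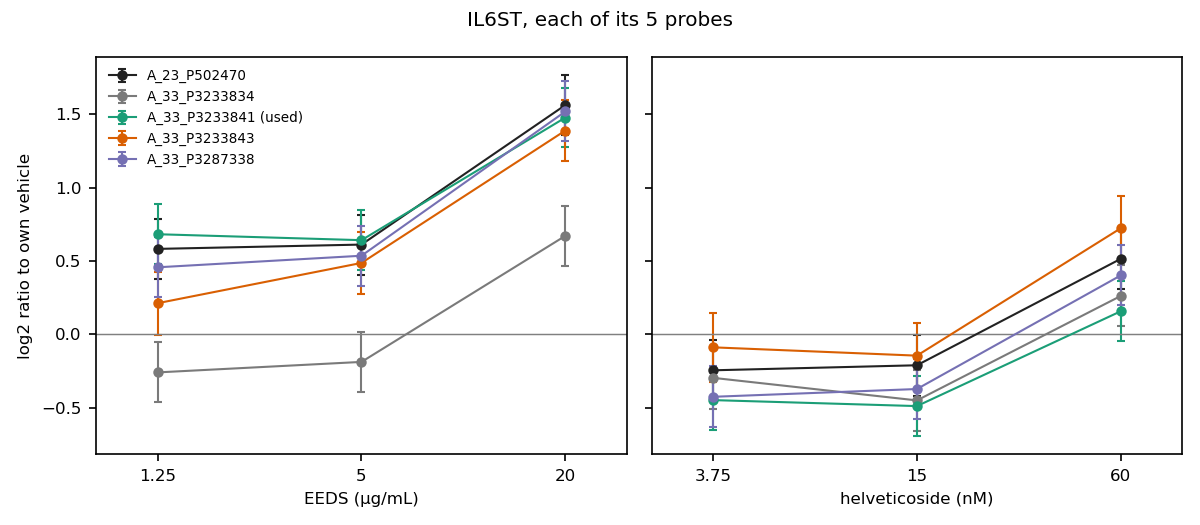
Log2 ratio of each of the 5 IL6ST probes to its own vehicle (vertical axis) at the 3 doses of EEDS on the left and of helveticoside on the right; bars are the scanner software's error of the ratio, and there is 1 array per dose. At 20 μg/mL EEDS, 4 probes lay between 1.39 and 1.56 and the remaining one at 0.67, and all 5 helveticoside ratios turned from negative at 15 nM to positive at 60 nM.

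SOCS3, the inhibitor that docks on IL6ST and blocks its JAK kinases, was higher than the vehicle on every treated array. Its log2 intensity was 9.06 on the EEDS vehicle and 10.73, 11.18 and 12.39 at the rising doses, and 9.19 on the helveticoside vehicle and 10.80, 10.90 and 12.17 at 3.75, 15 and 60 nM. The vehicles differed by 0.14, and every treated array stood well above both. The folds were 3.20, 4.37 and 10.1 with EEDS and 3.04, 3.27 and 7.85 with helveticoside. The slopes were 1.05 ± 0.16 (SE, adjusted p = 0.0189) and 0.90 ± 0.16 (adjusted p = 0.0290). At the lowest dose SOCS3 had 50.3% of its top log2 ratio with EEDS and 54.0% with helveticoside. IL11 had 23.9% and 13.9%, and LIF 53.8% and 18.6%.

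SOCS2, an inhibitor known chiefly for growth hormone signaling, had levels of 10.45, 10.77, 11.06 and 12.42 in the EEDS series. In the helveticoside series they were 10.18, 10.06, 10.47 and 11.74. It was 3.91-fold and 2.94-fold above the vehicle at the top doses, where most of the difference lay: the top array exceeded the middle one by 1.36 and 1.27 log2 units. The slopes of 0.62 ± 0.18 (SE, adjusted p = 0.0709) and 0.51 ± 0.18 (adjusted p = 0.127) were not called. SOCS1, which inhibits JAK kinases directly and restrains interferon signaling, had levels of 5.89, 5.94, 6.35 and 8.88 with EEDS, a 7.89-fold difference between the top dose and the vehicle. With helveticoside its levels were 6.35, 6.45 (not well above background), 6.40 and 7.08, and the fold at 60 nM was 1.65. Its slopes were 0.94 ± 0.26 (adjusted p = 0.0686) and 0.21 ± 0.26 (adjusted p = 0.712). In the EEDS series, the top SOCS1 array exceeded the middle one by 2.52 log2 units. The log2 ratio of SOCS1 at 20 μg/mL moved from 2.98 to 1.82 with the signal as scanned and with normexp correction.

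Levels higher at every step, from the vehicle to the top dose, were found for 8 of the 10 genes with EEDS, all but IL6ST and OSMR, against 19.3% of all genes. With helveticoside this held for 3 genes, IL11, LIF and SOCS3, against 12.3% of all genes. For IL6 the steps below 20 μg/mL were within the background.

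The slopes of the agents were set against each other in the same limma fit, with the reservation that agent and series cannot be told apart and that a step stands for different amounts of each agent. No gene of the 19056 was called (0%, with 525 at an unadjusted p under 0.05), and none of the 10 was among those. The helveticoside slope minus the EEDS slope was 0.01 for IL11 (95% interval -0.47 to 0.48), -0.18 for LIF (-0.60 to 0.23), -0.14 for SOCS3 (-0.70 to 0.41) and -0.10 for IL6R (-0.50 to 0.30). The largest differences were those of SOCS1 (-0.72, -1.65 to 0.20) and IL6ST (-0.40, -0.86 to 0.07). The adjusted p was 1 for each of the 10 genes.

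**Figure D3:**
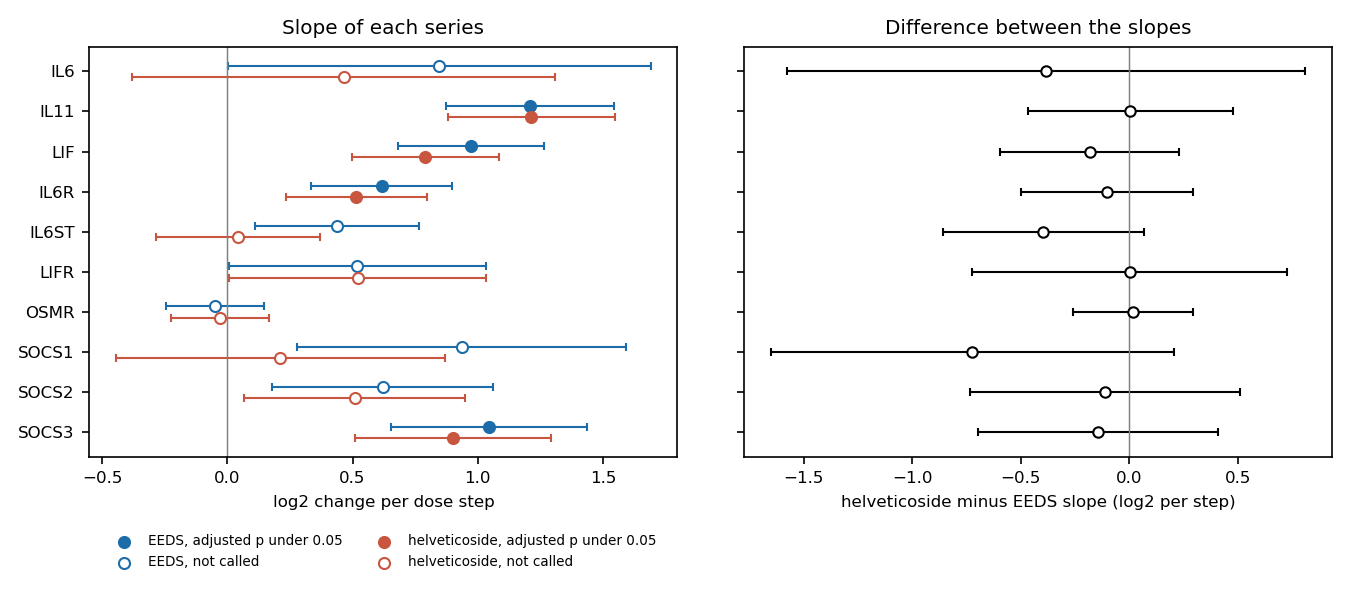
Left, slope of each gene in log2 units per dose step with its 95% interval for EEDS (blue) and helveticoside (red), filled where the limma adjusted p was under 0.05; right, the helveticoside slope minus the EEDS slope with its 95% interval. IL11, LIF, IL6R and SOCS3 are filled for both agents, and all 10 intervals on the right include 0.

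Of 82 other genes of the pathway, taken from lists of ligands, receptors, kinases and STAT factors, inhibitors, sheddases, target genes and mRNA decay factors, 81 were on the array. With EEDS 16 of them rose and 6 fell by the dose trend, and with helveticoside 11 rose and 4 fell. Of all genes, 7.26% rose and 7.85% fell with EEDS, and 5.46% and 5.79% with helveticoside. At the top dose 19 were more than 2-fold higher and 13 lower with EEDS, and 16 higher and 12 lower with helveticoside. The shares of all genes were 11.4% higher and 12.4% lower with EEDS, and 7.90% and 9.74% with helveticoside. The same shares apply to the counts of the single lists below. Ratios and changes given there without a fold are on the log2 scale.

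Among 8 other ligands and partner chains, CLCF1, a cytokine that acts on the ciliary neurotrophic factor receptor, rose with both agents. CLCF1 was 7.98-fold higher at 20 μg/mL EEDS (slope 0.95 ± 0.10 SE, adjusted p = 0.0132) and 4.05-fold higher at 60 nM helveticoside (slope 0.67 ± 0.10 SE, adjusted p = 0.0226). OSM, named after its values were seen, was also past 2-fold at 20 μg/mL EEDS, where a vehicle not well above background gave a lower bound just past that limit. IL31 was well above background on no array. Of 3 other receptors found, IL27RA rose with EEDS, with a log2 ratio of 1.19 at the top dose (adjusted p = 0.0365). Its log2 ratio at 60 nM helveticoside was 1.04 (adjusted p = 0.0852). CNTFR was well above background on no array.

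Of 11 JAK kinases and STAT factors, none rose and 3 fell with EEDS, and 2 fell with helveticoside. STAT6, the factor of IL4 and IL13 signaling, fell with both agents, by 2.87 log2 units at 20 μg/mL EEDS (adjusted p = 0.0132) and by 2.55 at 60 nM helveticoside (adjusted p = 0.0164). STAT4, the factor of IL12 signaling, fell by 2.92 (adjusted p = 0.0229) and by 3.60 (adjusted p = 0.0211). STAT2, a partner in interferon signaling, fell with EEDS, by 1.31 (adjusted p = 0.0222), and had a ratio of -0.90 with helveticoside (adjusted p = 0.0606). JAK3, the kinase of the common gamma chain receptors, had ratios of -2.20 and -2.10 at the top doses and was not called (adjusted p = 0.0724 and 0.106). STAT3, the main factor of IL6 signaling, was named for that role. Its log2 ratios at the top doses were 1.12 and 0.98 (2.18-fold and 1.98-fold higher), and its slopes were not called (adjusted p = 0.0890 and 0.136). JAK2, named after its values were seen, had a ratio of -1.04 at 60 nM helveticoside.

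Among 13 other inhibitors and phosphatases of the pathway, 1 rose and 1 fell with EEDS and 2 fell with helveticoside. CISH and PTPN6 were 2-fold lower at both top doses. CISH, a SOCS family member induced through STAT5, had ratios of -1.36, -2.10 and -2.16 with EEDS (adjusted p = 0.115) and fell with helveticoside, at least 3.22-fold at 60 nM, where it was not well above background (adjusted p = 0.0295). PTPN6, a phosphatase that removes phosphate from JAK kinases, fell by 2.15 with EEDS (adjusted p = 0.0264) and by 1.67 with helveticoside (adjusted p = 0.0443). SOCS6, named after its values were seen, had a ratio of -1.13 at 60 nM. PTPN11 rose with EEDS, by 0.67 log2 units at the top dose (adjusted p = 0.0285), and had a log2 ratio of 0.43 with helveticoside (adjusted p = 0.0877). Of 5 genes of receptor shedding, the proteases ADAM10 and ADAM17, which release soluble IL6R, and RHBDF1, a partner of ADAM17, were more than 2-fold higher at both top doses. The log2 ratios of these 3 were 1.11, 1.53 and 2.38 for EEDS and 1.07, 1.06 and 1.95 for helveticoside. All 3 rose with EEDS (adjusted p = 0.0417, 0.0345 and 0.0288), and ADAM10 and RHBDF1 rose with helveticoside (adjusted p = 0.0428 and 0.0382), where ADAM17 had an adjusted p of 0.0753.

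Of 28 genes known to be raised by STAT3 or IL6, 6 rose and 2 fell with EEDS, and 5 rose and none fell with helveticoside. At the top dose 7 were more than 2-fold higher and 6 lower with EEDS, and 6 higher and 2 lower with helveticoside. The medians of the measured log2 ratios of the 28 were 0.01 with EEDS and 0.38 with helveticoside. JUNB, a subunit of AP-1, had top log2 ratios of 2.90 and 2.54 (adjusted p = 0.0129 and 0.0164). The survival kinases PIM1 (2.52 and 2.56) and PIM3 (2.63 and 2.36) had the same adjusted p-values. VEGFA, the angiogenic growth factor, stood at 2.25 and 2.04 (adjusted p = 0.0283 and 0.0338). MCL1, an inhibitor of apoptosis, rose with EEDS, by 2.08 log2 units (adjusted p = 0.0372), and had a log2 ratio of 1.87 with helveticoside (adjusted p = 0.0526). ICAM1, an adhesion molecule, rose with EEDS, with a lower bound of 3.65-fold at the top dose (adjusted p = 0.0197). SAA1, an acute-phase protein, was called with helveticoside (adjusted p = 0.0382) but was well above background on no array. CEBPD, a factor of the acute-phase response, and the fibrinogen chain FGA fell with EEDS, by 1.48 and 1.08 (adjusted p = 0.0265 and 0.0313). The fibrinogen chain FGB had ratios of -1.20 and -1.24 and the mucin MUC1 of -1.91 and -1.69, and none of these slopes was called.

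Of 13 proteins that act on the decay of short-lived cytokine mRNAs, 3 rose with EEDS and 2 with helveticoside, and none was called as falling. At the top dose 5 were more than 2-fold higher and 0 lower with EEDS, and 4 higher and 2 lower with helveticoside. The 2 lower ones, named after their values were seen, were HNRNPD and ZC3H12B. HNRNPD had a ratio of -1.12 (adjusted p = 0.0594). ZC3H12B, well above background on 1 array only, the helveticoside vehicle, was at least 3.67-fold lower (adjusted p = 0.134). RC3H1 (roquin-1) had log2 ratios of 1.44, 1.91 and 2.40 with EEDS (adjusted p = 0.0189) and 0.37, 1.13 and 1.91 with helveticoside (adjusted p = 0.0302). ZFP36L1 had log2 ratios of 1.51 and 1.06 at the top doses (adjusted p = 0.0159 and 0.0376). RC3H2 rose with EEDS, by 1.05 log2 units (adjusted p = 0.0314), and had a log2 ratio of 0.74 with helveticoside (adjusted p = 0.0714). ZFP36 (tristetraprolin), which binds AU-rich elements, had log2 ratios of 0.42, 0.27 and 2.55 with EEDS and of 1.16 at 60 nM helveticoside. Its slopes were not called (adjusted p = 0.0910 and 0.466).

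**Figure D4:**
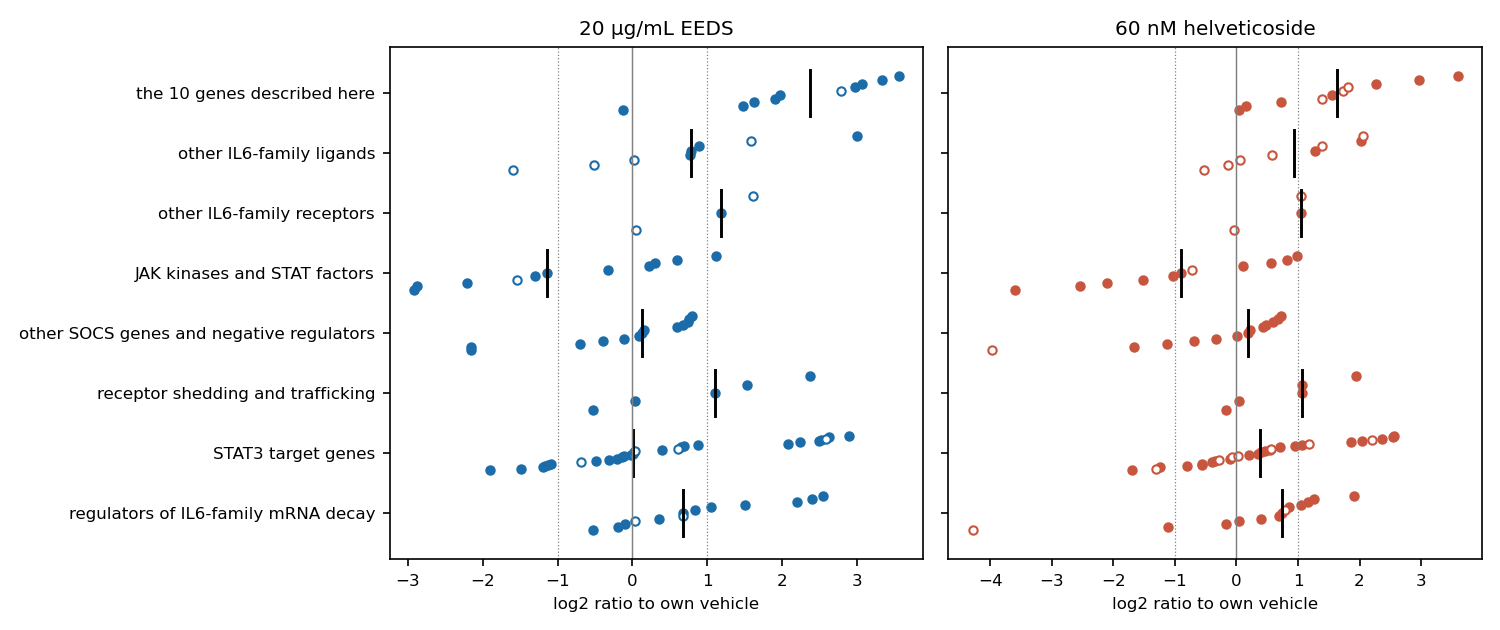
Log2 ratio to the own vehicle (horizontal axis) of each gene at 20 μg/mL EEDS (left) and 60 nM helveticoside (right), for the 10 genes and 7 lists of the same pathway; hollow points had an array below the well-above-background limit in the ratio, black bars are medians of the measured ratios, hollow points included with no bound applied, and dotted lines mark 2-fold. The bar of the 10 genes lies at 2.38 and 1.64, and the median with dim ratios at their bound was 1.94 over 10 genes and 1.44 over 9.

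The genes whose 6 log2 ratios lay nearest to those of a member were sought in the set of 11493 that passed the well-above-background limit on all 8 arrays. For IL11 they were SERTAD4, AEN and DNAJB2, with a root mean square difference of 0.20 to 0.29 log2 units. For LIF they were DDX10, LARP1B and SMG9 (0.23 to 0.24), for SOCS3 PTHLH, EPHA2 and PLK3 (0.24 to 0.29) and for SOCS2 FERMT2, PISD and ANKLE2 (0.10 to 0.14). IL6ST was nearest to TRIP11, DNTTIP2 and BDP1 (0.16 to 0.19), and OSMR to SLC11A1, CYFIP1 and COL27A1 (0.07 to 0.08). The ratios of a series share 1 vehicle array, so these patterns are a description of 8 arrays.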

How the data were processed

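Gene expression was measured on 8 one-colour Agilent arrays (stated label Cy5), and the signals used were those of the green channel of the scanner. For every spot the authors deposited the intensity read by the scanner software, together with a processed signal, background already subtracted, and its error. They also deposited a table of intensity values on a linear scale, which by its values holds the median signal minus background, quantile-normalized within each series; it was used as an alternative only. The files name no genome build.

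Control and outlier spots were left out, spots of a probe were averaged, and quantile normalization over the 8 arrays preceded the log2 transformation (limma 3.58.1, R 4.3.3). Of 34127 probes, 22 had no usable spot and 24812 were matched through their accession to 19056 RefSeq genes. For genes with several probes, the one with the highest mean signal was used. All genes passed the limit of 1.4 times the background on at least 1 array. Each series had its own intercept and slope in the trend fit, which left 4 residual degrees of freedom, with trend and robust estimation and a threshold of 0.05 for the adjusted p. No replicates, slides or scan dates were given, so a batch other than the series was not examined.

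The 10 genes and the pathway lists were chosen with earlier results of these data known. Named outside the 10 were pathway genes called for at least 1 agent or past 2-fold the same way at both top doses, and the 3 genes nearest to each member well above background on all arrays. Values of some listed genes are not reported here. Alternatives were other background corrections and scalings, the table of the authors, the mean over probes, other filters, thresholds and controls, and fits without each array or dose. Promoter motifs were searched with Python 3.11.15 (numpy 2.4.6, pandas 2.3.3).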

Additional observations from a re-analysis of the deposited data

How the results depend on the processing

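The count of 9 genes above 2-fold at 20 μg/mL EEDS was 6 to 9 under the alternatives, and the count at 60 nM helveticoside was 4 to 7 except at a 3-fold threshold, where it was 3. No gene was 2-fold lower at a top dose in any of them. With 75th percentile scaling, the median over all genes shifted by -0.38 log2 units at 20 μg/mL EEDS and by -0.18 at 60 nM helveticoside. Of the 10 genes, 9 lay above that median with EEDS, and 9 or 10 with helveticoside, in each scaling.

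The trend calls depended on the processing. For EEDS, 7 genes were called in place of 4 with the signal as scanned, with normexp correction at an offset of 50 and with 75th percentile scaling (IL6ST, SOCS1 and SOCS2 were added), and 8 in the table of the authors, with LIFR. For both agents no gene was called without the lowest, the middle or the top dose of each series, or with only the 4 arrays of the series; these fits have fewer arrays, and 0 of 19056 genes were called in each by limma. Across all fits in which the trend of an agent had no call, 3034 to 5399 genes had an unadjusted limma p under 0.05 for that trend. Leaving out 1 array gave 0 to 5 genes for EEDS and 0 to 4 for helveticoside. For EEDS the count was 0 without the EEDS vehicle or the 20 μg/mL array. For helveticoside it was 0 without the 15 or the 60 nM array, 1 without its vehicle or the 5 μg/mL array, and 2 without the 1.25 or the 20 μg/mL array. The slopes of IL11, LIF, IL6R and SOCS3 were positive in every alternative for both agents. The difference between the slopes gave 0 genes in every fit. No paired analysis was possible because each group had 1 array.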
